A study of Mus musculus with 12 samples.

Results

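The genes of the proteasome, its induced alternative subunits, its activators, its inhibitor and its assembly chaperones were followed in mouse alveolar macrophages through liver regeneration. Members were taken by symbol, as the genes whose names begin with Psma to Psmg and a number, and each gene was represented by its probe set of highest mean over the 12 arrays. The rule found 50 of the 19505 named genes, on 50 of the 22206 probe sets tested. Of the 51 such protein-coding symbols in the RefSeq gene table, Psmb5, the constitutive chymotrypsin-like subunit, had no probe set that carried its name and was not analysed here.

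Cells were obtained from the lungs of male C57 Black mice by magnetic sorting with an antibody to Siglec-F, and their total RNA was hybridised to Clariom S mouse arrays. The 4 groups held 3 biological replicates each: mice with an intact liver, and mice from which 70% of the liver had been removed 1, 3 or 7 days earlier. No sham-operated mice were among the groups, so that the effects of the operation itself and of the loss of liver cannot be told apart. The age of the animals was not given in the sources used here, nor whether an array held 1 animal or a pool. Siglec-F is carried by eosinophils as well as by alveolar macrophages, and the beads select both.

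The proteasome is the barrel-shaped protease that degrades proteins tagged with ubiquitin in the cytosol and nucleus. Its 20S core is built of alpha rings, which gate the chamber, around beta rings, which hold the proteolytic sites, and it is capped by the 19S regulatory particle, whose ATPases unfold substrates, or by the activators PA28 and PA200. Interferon-gamma induces Psmb8, Psmb9 and Psmb10, which replace Psmb5, Psmb6 and Psmb7 in newly built cores to give the immunoproteasome, and Psme1 and Psme2, which form the PA28 alpha-beta cap. These forms supply peptides for MHC class I molecules and are well known in macrophages.

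Of the 50 members, 7 were 20S alpha subunits, 4 were beta subunits with no proteolytic site, 2 were constitutive catalytic beta subunits, 3 were induced catalytic beta subunits, 6 were ATPases and 11 were other subunits of the regulatory particle. The induced activators numbered 2, the constitutive activators 2, the assembly chaperones 7 and the inhibitors 1. Another 2 were the tissue-restricted Psma8, of testis, and Psmb11, of thymus epithelium. The last 3, Psmc3ip, Psme2b and Psme3ip1, matched the symbol rule but were given no subunit role here, and are in neither set below. The induced set below is Psmb8, Psmb9, Psmb10, Psme1 and Psme2. The constitutive set is the 32 alpha, beta, ATPase and regulatory subunits with Psme3 and Psme4.

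The induced catalytic genes varied together over the arrays. So did Psmb9 with the 32 constitutive subunits, at a median correlation of 0.693. The upstream sequences of the induced catalytic genes are shown, with that of Psmb6, the constitutive counterpart of Psmb9, for comparison. Each is the 250 bases before the annotated start, 5′ to 3′ on the gene's strand, from RefSeq on GRCm38.p6. They lie at chr17:34197945-34198194 (plus strand, Psmb8), chr17:34187331-34187580 (minus strand, Psmb9), chr8:105938393-105938642 (minus strand, Psmb10) and chr11:70525107-70525356 (plus strand, Psmb6). Capitals mark matches on either strand to 4 motifs: the interferon-stimulated response element (ISRE) type, which is GAAA, any 2 bases and GAAA again, TTCNNNGAA (the gamma-activated site type), CCAAT and TGACNNNGC (the antioxidant response element type).
Psmb8: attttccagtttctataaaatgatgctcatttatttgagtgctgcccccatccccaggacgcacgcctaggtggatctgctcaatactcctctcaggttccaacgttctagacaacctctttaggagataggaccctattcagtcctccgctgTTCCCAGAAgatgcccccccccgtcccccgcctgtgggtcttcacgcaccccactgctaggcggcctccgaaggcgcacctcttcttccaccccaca
Psmb9: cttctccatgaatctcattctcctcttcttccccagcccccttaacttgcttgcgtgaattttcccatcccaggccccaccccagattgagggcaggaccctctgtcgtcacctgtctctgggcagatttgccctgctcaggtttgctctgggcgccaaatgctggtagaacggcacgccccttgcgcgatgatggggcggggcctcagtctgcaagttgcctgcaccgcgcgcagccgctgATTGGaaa
Psmb10: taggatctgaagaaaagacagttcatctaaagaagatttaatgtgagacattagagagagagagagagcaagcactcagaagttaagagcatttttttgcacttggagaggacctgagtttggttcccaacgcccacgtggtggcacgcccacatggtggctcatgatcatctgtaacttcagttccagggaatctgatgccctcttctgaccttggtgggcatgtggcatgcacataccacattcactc
Psmb6: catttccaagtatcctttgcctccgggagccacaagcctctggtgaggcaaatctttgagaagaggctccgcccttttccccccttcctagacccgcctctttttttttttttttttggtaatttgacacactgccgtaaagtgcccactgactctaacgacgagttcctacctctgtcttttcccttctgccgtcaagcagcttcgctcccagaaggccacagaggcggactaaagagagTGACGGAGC

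In these letters Psmb8 held a TTCNNNGAA match, TTCCCAGAA, 97 to 89 bases before the start. Psmb9 held a CCAAT match on the opposite strand, read as ATTGG, 8 to 4 bases before the start. Psmb6 held TGACGGAGC, 9 to 1 bases before the start, and Psmb10 held no match. Over all 32851 RefSeq promoter windows of this length, 2.98% held the ISRE type, 7.02% TTCNNNGAA, 33.8% CCAAT and 10.2% TGACNNNGC. The 5 induced genes had 6 windows, of which 0 held the ISRE type and 1 held TTCNNNGAA. Of the 32 constitutive genes, 26 were in the table with 28 windows, of which 39.3% held CCAAT, 10.7% TGACNNNGC and 7.14% the ISRE type. A match is a description of these windows and not a bound site. The median number of CpG dinucleotides was 10 in the induced windows and 16 in the constitutive windows, against 6 over all windows. Psmb9 and Tap1, the peptide transporter that acts after it in the same pathway, are transcribed away from each other from starts 226 bases apart, so their windows overlap.

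Signals are the authors' deposited log2 values, in which a difference of 1 is a doubling, and levels are not compared between genes. As a floor for dim probe sets, the mean signal exceeded by the top 5% of the intron controls was 5.12. Of the 50 members, 39 were above it. The 11 that were not were Psma8, Psmb11, Psmc3ip, Psmc5, Psmd5, Psmd9, Psme4, Psmg1, Psmg2, Psmg3 and Psmg4.

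How well exon controls stood above intron controls was measured on each array as an area under the curve. It was 0.809 on day 1 replicate 2, 0.832 on day 3 replicate 1 and 0.838 on day 7 replicate 2, while the 9 remaining arrays had 0.852 to 0.888. The induced and constitutive sets and the members whose values turn on these 3 arrays are therefore given with and without them, and the arrays are called weakly separating below; the limit of 0.84 was set after the values were seen. The sorted cells carried alveolar macrophage markers, whose mean over 11 genes was 8.88 ± 0.42 at day 1, 8.91 ± 0.10 at day 3 and 9.17 ± 0.23 at day 7, against 9.14 ± 0.19 in intact mice (SD, n = 3 each). Markers of other cells moved with the groups. The mean of 9 neutrophil markers was 7.70 to 8.69 at day 1, 7.91 to 8.81 at day 3 and 8.24 to 8.95 at day 7, against 7.12 to 7.58 in intact mice. The mean of 8 type 2 alveolar markers was 3.99 to 6.15, 5.34 to 6.63 and 5.10 to 5.45 on those days, against 6.47 to 7.04 in intact mice. The mean of 8 endothelial markers was 3.94 to 5.96, 4.91 to 6.51 and 4.71 to 6.03 on those days, against 6.21 to 7.20 in intact mice. The mean of the neutrophil markers was thus higher on every resected array than on any intact array. Of these 9 genes, 8 were higher and 1 lower on each day. Without the weakly separating arrays the lower one was Camp, at -0.24, -0.49 and -0.50 on days 1, 3 and 7. Type 2 alveolar and endothelial markers were lower in their group means. The mean of 7 fibroblast markers was 3.24 to 4.27, 3.48 to 3.94 and 3.59 to 3.79 at days 1, 3 and 7. In intact mice it was 4.54 to 5.37. The resected means lay below the intron control limit of 5.12. Of the 7, 0, 1 and 2 were called in limma, beside 0, 0 and 1 type 2 alveolar marker. Of endothelial and neutrophil markers 0 were called on each day. Over all probe sets 0%, 0.0045% and 0.018% were called. Without the weakly separating arrays 2, 3 and 3 fibroblast and 1, 5 and 6 type 2 alveolar markers were called. So were 1, 7 and 8 endothelial and 2, 2 and 4 neutrophil markers, against 0.32%, 1.13% and 1.26% of all probe sets. The mean of 5 eosinophil markers, Siglecf among them, was 4.28 to 5.29, 4.98 to 6.09 and 5.45 to 6.89 on those days, against 5.01 to 5.99 in intact mice. Of these 5, 2 were higher and 3 lower at day 3 and at day 7. The 2 higher were Ccr3 and Il5ra, receptors of eosinophils. They had differences of 2.14 and 1.57 at day 3 and 2.71 and 1.24 at day 7 (limma adjusted p = 0.385, 0.187, 0.14 and 0.312). Without the weakly separating arrays these were 2.40 and 1.66 at day 3, both called (limma adjusted p = 0.00897 and 0.00609). At day 7 Ccr3 was then called at 2.16 and Il5ra, at 0.93, was not (limma adjusted p = 0.0112 and 0.072). Epx and Prg2 went the other way. Without the weakly separating arrays they differed by -1.27 and -0.93 at day 3 (limma adjusted p = 0.481 and 0.684). At day 7 Epx and Prg2 differed by -0.88 and -0.90 in that fit (limma adjusted p = 0.583 and 0.525). The mean of 11 T and NK cell markers was 2.78 to 3.04, 2.66 to 3.15 and 2.71 to 3.06 at days 1, 3 and 7. In intact mice it was 3.33 to 3.59, and all these means lay below the intron control limit of 5.12. Of the 11, 4, 3 and 3 were higher and 7, 8 and 8 lower. On each day 0 were called, or 0, 3 and 2 without the weakly separating arrays. The part of all these other cells in the results below was not tested. In such bulk RNA a smaller share of a cell type cannot be told apart from less RNA per cell.

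No member of the proteasome passed the test on any day after resection. In limma, with Benjamini-Hochberg adjustment over 22206 probe sets and a threshold of 0.05, 0 of 50 members were called at day 1, 0 at day 3 and 0 at day 7 against intact mice. Over all probe sets, 0% were called at day 1, 0.0045% at day 3 and 0.018% at day 7. Between days, 0 members were called in day 3 minus day 1, day 7 minus day 3 or day 7 minus day 1, where 0%, 0% and 0% of all probe sets were called. The moderated F test over the 4 groups called 0 members and 0.00901% of all probe sets.

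At an unadjusted p under 0.05, 0 of 50 members passed at day 1, 1 at day 3 (Psme4) and 1 at day 7 (Psmd9), against 8.94%, 4.46% and 5.7% of all probe sets. The F test had 2 such members, Psme4 and Psmd9, against 7.34% of all probe sets. Between days there was 1 such member in day 3 minus day 1 (Psme4), 2 in day 7 minus day 3 (Psme4 and Psmc6) and 4 in day 7 minus day 1 (Psmd9, Psmd6, Psma6 and Psme2b), against 9.6%, 5.12% and 6.74%. The members' shares lay near or below these backgrounds. The limits of the data are wide for single genes: the 95% interval of a member's difference reached a median of 0.62 to either side, and 1.22 for the widest.

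Among the induced subunits the means of all 5 were lower than in intact mice at days 1 and 3, and those of 4 were lower at day 7. The median difference of the 5 was -0.37 at day 1, -0.24 at day 3 and -0.30 at day 7. The constitutive set had medians of -0.13 (8 higher, 24 lower), 0.03 (20 higher, 12 lower) and -0.14 (8 higher, 24 lower) on those days. Over all probe sets tested the medians were -0.01, 0.00 and -0.01, with 51.5%, 49.7% and 51.7% lower. None of the induced differences passed the test, and every group of resected mice overlapped the intact group in each of the 5 genes.

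**Figure D1:**
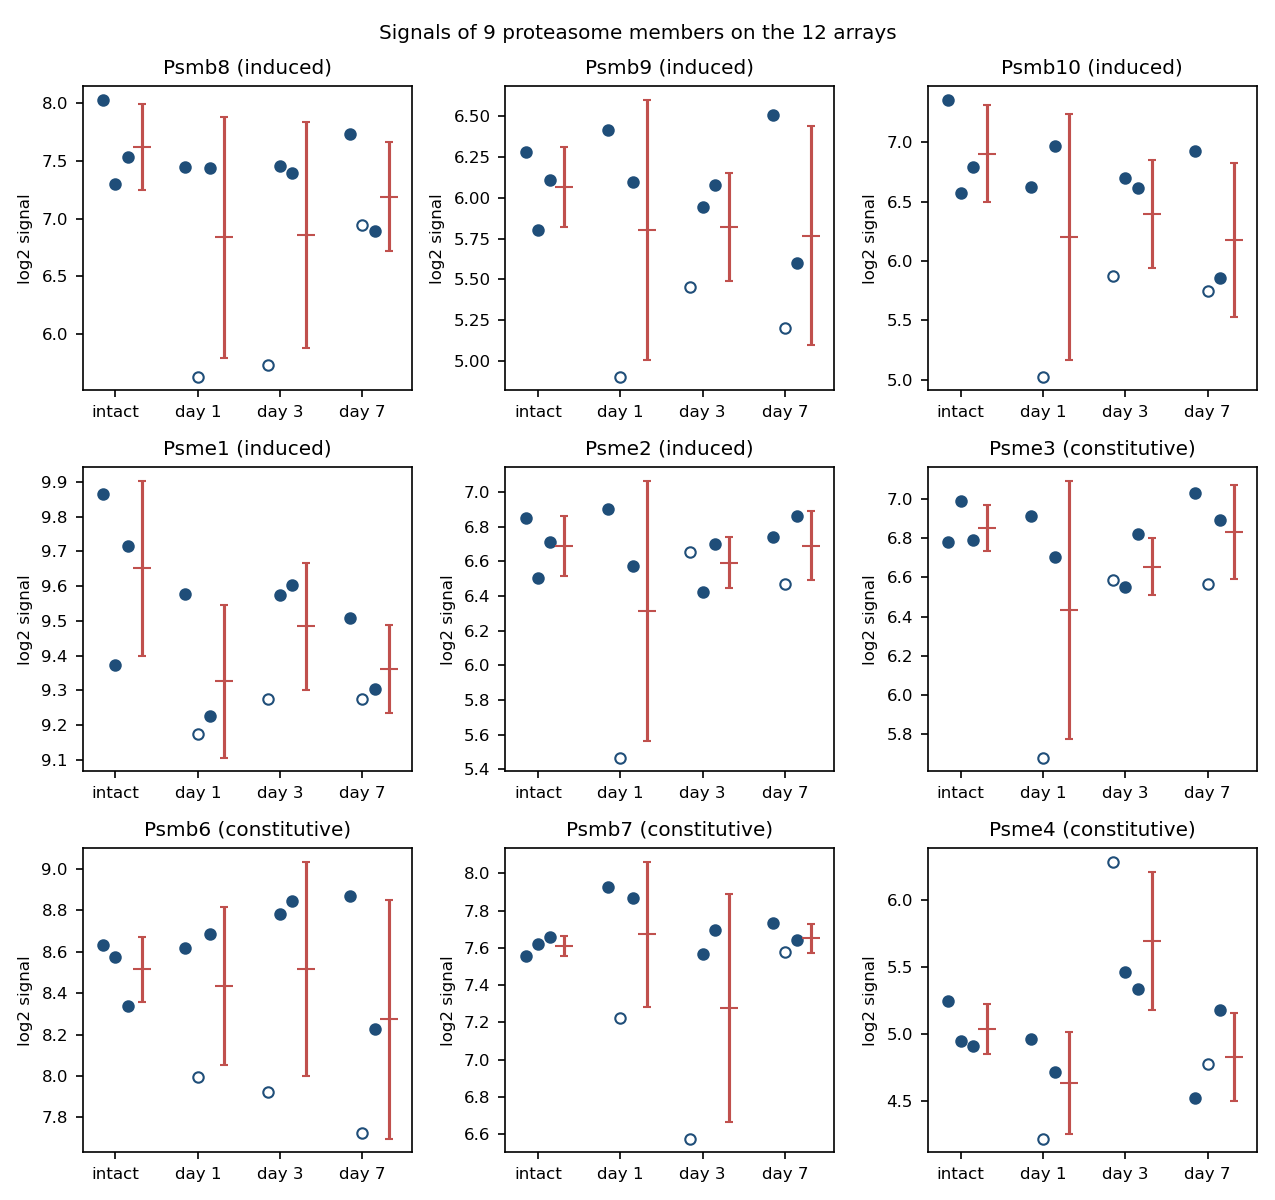
Log2 signal of 9 members on each of the 12 arrays, by group on the horizontal axis. Points are arrays, open where exon and intron controls were weakly separated, and red marks are the mean ± SD of 3 arrays. The open day 1 point is the lowest of all arrays for Psmb8, Psmb9, Psmb10, Psme1, Psme2, Psme3 and Psme4, while the open day 3 point of Psme4, at 6.29, is its highest.

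Psmb8, the induced chymotrypsin-like subunit, had log2 signals of 8.03, 7.30 and 7.53 in intact mice, 7.45, 5.63 and 7.44 at day 1, 5.73, 7.45 and 7.40 at day 3, and 7.73, 6.94 and 6.89 at day 7. The single weakly separating array was low at day 1 and at day 3, and the other 2 arrays of those days lay within the intact range, as did 1 array of day 7. The differences were -0.78 ± 0.53 at day 1, -0.76 ± 0.53 at day 3 and -0.43 ± 0.53 at day 7 (log2 ± SE, limma adjusted p = 0.663, 1 and 1). Without the weakly separating arrays they were -0.18, -0.19 and -0.31.

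Psmb10, the induced trypsin-like subunit, had log2 signals of 7.36, 6.57 and 6.79 in intact mice, 6.62, 5.02 and 6.97 at day 1, 5.87, 6.70 and 6.61 at day 3, and 6.93, 5.75 and 5.86 at day 7. At day 7 both replicates 2 and 3 were below all intact arrays while replicate 1 was among them. The differences were -0.70 ± 0.47, -0.51 ± 0.47 and -0.73 ± 0.47 at days 1, 3 and 7 (limma adjusted p = 0.658, 1 and 0.99). Without the weakly separating arrays they were -0.11, -0.25 and -0.51.

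Psmb9, the induced subunit that takes the place of the caspase-like Psmb6, had log2 signals of 6.28, 5.80 and 6.11 in intact mice, 6.41, 4.90 and 6.09 at day 1, 5.45, 5.94 and 6.08 at day 3, and 6.51, 5.20 and 5.60 at day 7. Its highest array was at day 7 and its lowest at day 1, so the groups overlapped widely. The differences were -0.26 ± 0.39, -0.24 ± 0.39 and -0.30 ± 0.39 (limma adjusted p = 0.85, 1 and 1). Without the weakly separating arrays that of day 1 took the opposite sign, at 0.19, and those of days 3 and 7 were -0.05 and -0.01.

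Of the PA28 subunits, Psme1 had log2 signals of 9.86, 9.37 and 9.71 in intact mice, 9.58, 9.17 and 9.23 at day 1, 9.27, 9.57 and 9.60 at day 3, and 9.51, 9.27 and 9.30 at day 7. Each day had arrays below the lowest intact array, and each had at least 1 array above it. The differences were -0.33 ± 0.18, -0.17 ± 0.18 and -0.29 ± 0.18 (limma adjusted p = 0.616, 1 and 0.989), and -0.25, -0.06 and -0.25 without the weakly separating arrays. Psme2 had 6.85, 6.50 and 6.71 in intact mice, 6.90, 5.47 and 6.57 at day 1, 6.65, 6.42 and 6.70 at day 3, and 6.74, 6.47 and 6.86 at day 7. A single day 1 array stood apart from the other 11. Its differences were -0.37 ± 0.30, -0.10 ± 0.30 and 0.00 ± 0.30 (limma adjusted p = 0.704, 1 and 1).

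The measured constitutive catalytic subunits were Psmb6 and Psmb7, and neither passed the test. Psmb6, the caspase-like subunit, had log2 signals of 8.63, 8.58 and 8.34 in intact mice, 8.62, 7.99 and 8.68 at day 1, 7.92, 8.78 and 8.85 at day 3, and 8.87, 7.72 and 8.23 at day 7. Psmb7, the trypsin-like subunit, had 7.55, 7.62 and 7.66 in intact mice, 7.93, 7.22 and 7.87 at day 1, 6.58, 7.57 and 7.69 at day 3, and 7.73, 7.58 and 7.64 at day 7. In each gene the low arrays of days 1 and 3 were again the weakly separating ones. The differences were -0.08 ± 0.32, 0.00 ± 0.32 and -0.24 ± 0.32 for Psmb6, and 0.06 ± 0.27, -0.33 ± 0.27 and 0.04 ± 0.27 for Psmb7, at days 1, 3 and 7. Over the 9 other arrays they were 0.14, 0.30 and 0.03 for Psmb6, and 0.28, 0.02 and 0.08 for Psmb7.

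Each induced subunit was set against its constitutive counterpart within the same array, which removes what an array does to both genes alike. This gave 12 exact two-sided permutation tests of 3 against 3 arrays, in which no p can be below 0.1. The Psmb10 minus Psmb7 log2 difference was -1.47 ± 0.67 at day 1 and -1.47 ± 0.58 at day 7, against -0.71 ± 0.45 in intact mice (SD, n = 3 each). The shifts were -0.76 at day 1 and -0.77 at day 7 (exact permutation p = 0.2 and 0.3), with 2 of 3 arrays below all intact arrays on each day. At day 3 the shift was -0.18 (exact permutation p = 0.7). Those 3 shifts were -0.40, -0.59 and -0.27 for days 1, 7 and 3 without the weakly separating array of the day. For Psmb9 minus Psmb6 they were -0.18, -0.24 and -0.05 at days 1, 3 and 7, for Psme1 minus Psme3 0.09, 0.03 and -0.27, and for Psme2 minus Psme3 0.05, 0.10 and 0.03. Without the weakly separating array of the day, the day 1 shift turned to 0.05 for Psmb9 minus Psmb6 and to -0.21 for Psme1 minus Psme3. All 12 adjusted p were 0.982 or 1 in the exact permutation tests.

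Over the whole sets, the mean deviation from intact of the induced set minus that of the constitutive set was -0.31 ± 0.15 at day 1, -0.38 ± 0.24 at day 3 and -0.21 ± 0.15 at day 7, against 0.00 ± 0.31 in intact mice (SD, n = 3 each). The 3 intact arrays alone spanned -0.34 to 0.27, and the arrays after resection spanned -0.65 to -0.06, so the groups overlapped.

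The 4 arrays of lowest control separation were also the 4 of lowest level in both sets. The mean deviation of the constitutive set was -0.86 on day 1 replicate 2, -0.46 on day 7 replicate 2 and -0.14 on day 3 replicate 1. That of the induced set was -1.34, -0.66 and -0.79 on the same arrays. Day 7 replicate 3, with the next lowest separation, had -0.48 for the induced set and -0.13 for the constitutive set. The order was not strict: intact replicate 2, with the highest separation, had -0.28 for the induced set. On day 1 replicate 2, 30 of 32 constitutive subunits were below the mean of the other 2 arrays of that day, 15 of them by over 1, with a median of -0.82. Among 5497 bright probe sets of all kinds on that array, 80.4% were lower, with a median of -0.53. On day 7 replicate 2 the count was 29 of 32 with a median of -0.46, beside 71.8% of the bright probe sets, and on day 3 replicate 1 it was 24 of 32 with a median of -0.29, beside 57.4%.

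**Figure D2:**
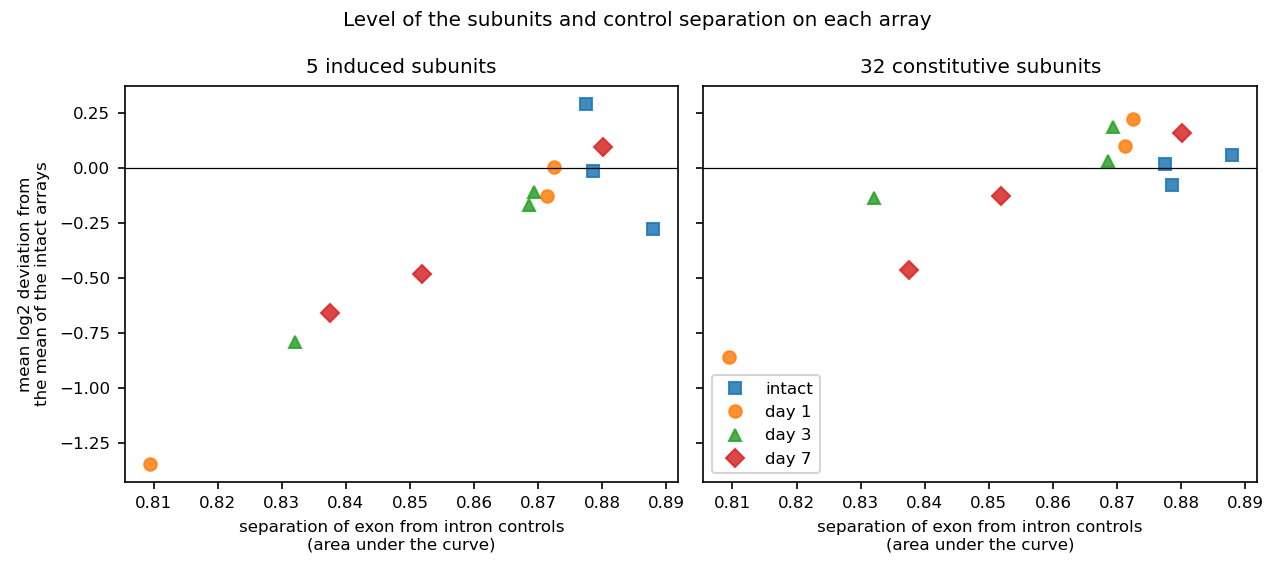
Mean log2 deviation from the intact arrays of the 5 induced subunits (left) and the 32 constitutive subunits (right) against the separation of exon from intron controls, 1 point per array. The lowest point of both panels is day 1 replicate 2, at a separation of 0.809 and deviations of -1.34 and -0.86.

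Without the 3 weakly separating arrays the constitutive set had medians of 0.14 at day 1 (27 higher, 5 lower), 0.13 at day 3 (24 higher, 8 lower) and 0.02 at day 7 (18 higher, 14 lower). The day 1 and day 7 medians thus took the opposite sign. Each array left out had the lowest mean level of its day in both sets, and no intact array was left out. Leaving them out can therefore only raise the mean level of those days. Over all probe sets the medians were 0.00, 0.01 and 0.01 in that fit. The induced set had -0.11, -0.13 and -0.25. In that limma fit 71, 252 and 280 of all probe sets (0.32%, 1.13% and 1.26%) were called on the 3 days and 0, 0 and 0 members. At an unadjusted p under 0.05 there were 2 members at day 1 (Psma5 at 0.55 and Psma6 at 0.57), 0 at day 3 and 3 at day 7 (Psmd10 at 0.48, Psmg4 at 0.41 and Psmd9 at -0.38), against 10.3%, 8.79% and 11.6% of all probe sets.

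Among the 20S alpha subunits, which form the outer rings, 6 of 7 had lower means at day 1, 1 at day 3 and 5 at day 7. Psma6 had the smallest p of all members at day 1. Its log2 signals were 7.48, 7.50 and 7.31 in intact mice, 8.05, 7.53 and 7.95 at day 1, 7.56, 7.50 and 7.64 at day 3, and 7.78, 6.90 and 7.36 at day 7. All 3 day 1 arrays were above all intact arrays, also the weakly separating one. The difference was 0.42 ± 0.22 (limma adjusted p = 0.595). Psma1 and Psma5 had the widest ranges over the arrays of all members, 2.80 and 2.74. Psma1 had 7.33, 7.61 and 7.59 in intact mice, 7.61, 5.11 and 7.39 at day 1, 7.91, 7.50 and 7.81 at day 3, and 7.74, 7.07 and 7.38 at day 7. At day 1 Psma5 had 6.27, 3.53 and 5.99, against 5.75, 5.54 and 5.45 in intact mice. In both genes the low day 1 array was the weakly separating one. Psma3 had 7.07, 6.82 and 6.81 in intact mice, 7.13, 6.31 and 7.19 at day 1, 7.61, 7.08 and 7.13 at day 3, and 6.85, 6.52 and 6.90 at day 7. Its day 3 arrays were all above the intact arrays, and the difference was 0.37 ± 0.24 (limma adjusted p = 1), or 0.20 without the weakly separating array, which was the highest.

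Of the beta subunits with no proteolytic site, Psmb4 differed by -0.61 at day 1 and -0.42 at day 7, and Psmb1 by 0.18 and 0.23. Psmb4 had 4.61 on the weakly separating day 1 array, against 6.85 and 6.53 on the other day 1 arrays, and without the 3 weak arrays its differences were 0.09 at day 1 and -0.10 at day 7. The 4 genes were split evenly in sign at days 1 and 3. The ATPases, which form the unfolding ring at the base of the regulatory particle, had medians of -0.19, 0.02 and -0.16, with 5, 3 and 6 of 6 lower. Psmc1 had the narrowest range over the 12 arrays of all members, 0.37. Psmc2 had 7.86, 5.86 and 7.55 at day 1, against 7.60, 7.85 and 7.63 in intact mice, so the day 1 difference of -0.60 lay in the weakly separating array. Psmc6 had 6.67, 6.69 and 6.56 in intact mice, 6.73, 6.70 and 6.66 at day 1, 7.16, 6.66 and 6.59 at day 3, and 6.49, 6.40 and 6.33 at day 7. Its day 7 arrays were below all others, and day 7 minus day 3 was -0.40 ± 0.17 (limma adjusted p = 0.951).

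The other 11 subunits of the regulatory particle, among them receptors and removers of ubiquitin chains, had medians of -0.08, 0.01 and -0.13, with 8, 4 and 7 lower. Psmd4, a ubiquitin receptor, had 6.72, 7.07 and 6.87 in intact mice, 7.00, 6.47 and 7.49 at day 1, 6.43, 6.70 and 6.95 at day 3, and 6.82, 5.83 and 6.51 at day 7. At day 7 replicates 2 and 3 were below the intact arrays, and the difference was -0.50 ± 0.29 (limma adjusted p = 0.975), or -0.22 without the weakly separating arrays. Psmd6, a scaffold subunit, had 5.31, 5.46 and 5.55 in intact mice, 6.42, 5.76 and 5.44 at day 1, 5.42, 5.11 and 5.82 at day 3, and 5.38, 4.38 and 5.39 at day 7. Its arrays of day 7 were all below those of day 1, with a difference of -0.83 ± 0.31 (limma adjusted p = 0.738).

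**Figure D3:**
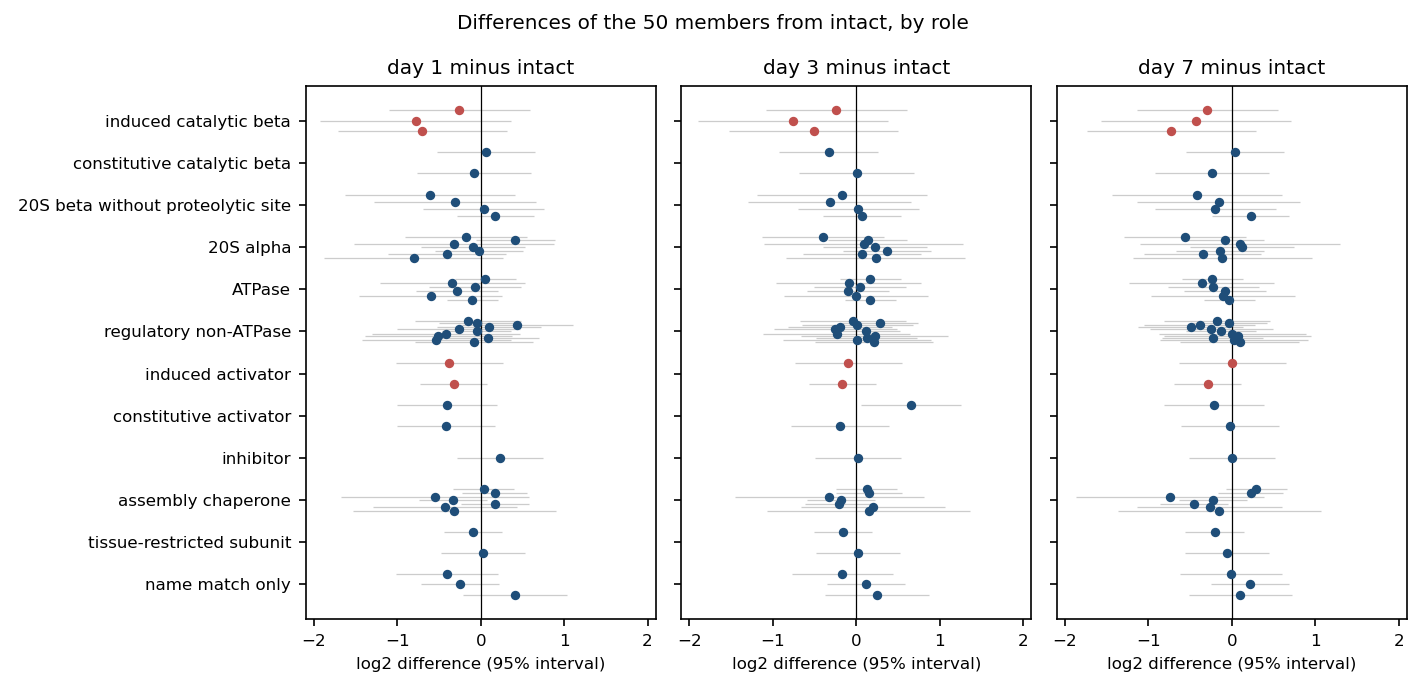
Log2 difference of each of the 50 members from intact mice at days 1, 3 and 7, grouped by role, with 95% intervals from limma. Induced subunits are red and all others blue. The induced points lie at or left of 0 on each day, and the interval of Psme4 at day 3, 0.06 to 1.26, lies right of 0.

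Psme4, which encodes the activator PA200, had the smallest p of all members at day 3 and in the F test. Its log2 signals were 5.25, 4.95 and 4.91 in intact mice, 4.97, 4.22 and 4.71 at day 1, 6.29, 5.47 and 5.34 at day 3, and 4.53, 4.78 and 5.18 at day 7. The 3 day 3 arrays were above all 9 others, and the highest was the weakly separating one. The difference of day 3 from intact was 0.66 ± 0.28 with an interval of 0.06 to 1.26 (limma adjusted p = 1). Day 3 minus day 1 was 1.06 ± 0.28 (limma adjusted p = 0.365) and day 7 minus day 3 was -0.87 ± 0.28 (limma adjusted p = 0.803). The F test gave an adjusted p of 0.501 in limma. Without the weakly separating arrays the day 3 difference from intact was 0.36 (limma adjusted p = 0.736). Its mean signal was below the intron control limit of 5.12. The other constitutive activator, Psme3 (PA28 gamma), had 6.78, 6.99 and 6.79 in intact mice, 6.91, 5.68 and 6.70 at day 1, 6.59, 6.55 and 6.82 at day 3, and 7.03, 6.57 and 6.89 at day 7. Its day 3 arrays overlapped those of intact mice, with a difference of -0.20 ± 0.27.

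Among the assembly chaperones, which build the core and the base of the regulatory particle, Psmd9 had the smallest p of all members at day 7. Its log2 signals were 4.85, 4.53 and 4.49 in intact mice, 4.75, 4.84 and 4.79 at day 1, 4.04, 4.62 and 4.59 at day 3, and 4.15, 4.02 and 4.34 at day 7. All 3 day 7 arrays were below all intact and day 1 arrays. The difference from intact was -0.45 ± 0.19 with an interval of -0.86 to -0.04 (limma adjusted p = 0.819), and day 7 minus day 1 was -0.62 ± 0.19 (limma adjusted p = 0.704). The F test gave an adjusted p of 0.627 in limma. Psmg1 had 5.15, 5.36 and 5.09 in intact mice, 4.997, 4.66 and 4.94 at day 1, 4.84, 5.16 and 5.06 at day 3, and 4.93, 4.69 and 5.29 at day 7. Its day 1 arrays were all below the intact arrays, by -0.34 ± 0.19 (limma adjusted p = 0.612), or by -0.23 without the weakly separating arrays. Psmg4 had 2.19, 2.24 and 2.20 in intact mice, 2.42, 2.19 and 2.13 at day 1, 2.20, 2.52 and 2.28 at day 3, and 2.49, 2.27 and 2.74 at day 7, far below the intron limit on every array. Its day 7 arrays were above the intact arrays, by 0.29 ± 0.17 (limma adjusted p = 0.975). The inhibitor Psmf1 had 6.76, 7.45 and 6.82 at day 1, against 6.82, 6.79 and 6.73 in intact mice, so that its difference of 0.23 lay in the weakly separating array. Without the weak arrays its differences were 0.0090 at day 1 and 0.25 at day 7, against 0.23 and -0.0035 over all 12 arrays.

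Counted over all members, the arrays of a day and of intact mice did not overlap for 2 of 50 at day 1 (Psma6 and Psmg1), 7 at day 3 (Psma3, Psma4, Psma6, Psmd1, Psmd13 and Psme4 higher, Psma7 lower) and 4 at day 7 (Psmg4 higher, Psmb11, Psmc6 and Psmd9 lower). Over all probe sets the shares were 16.4%, 13.9% and 14.3%, so the members' 4%, 14% and 8% were at or below them.

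**Figure D4:**
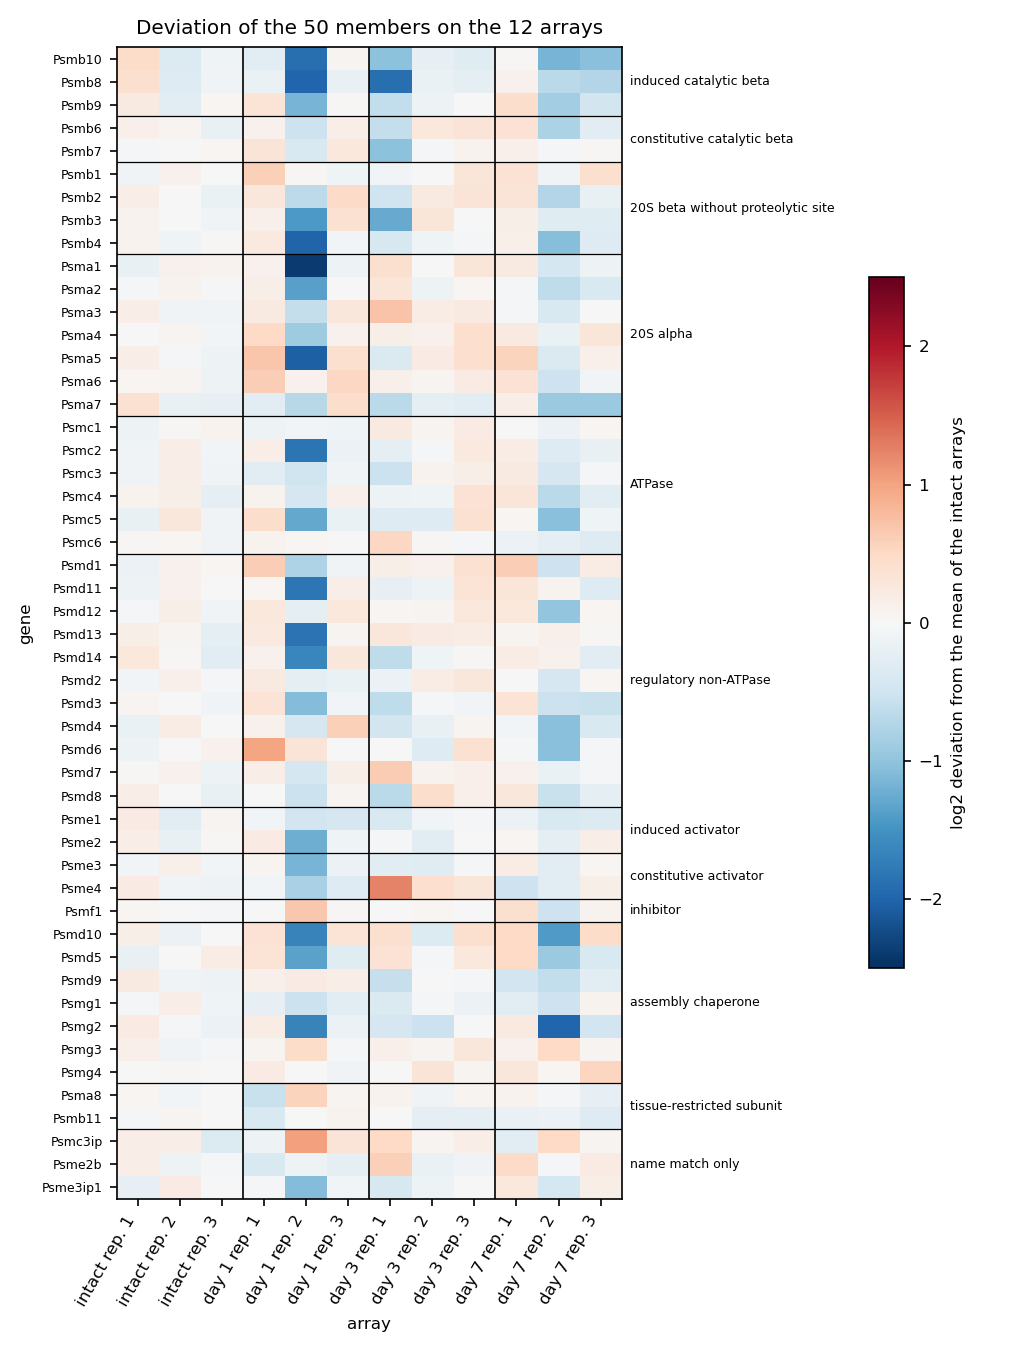
Log2 deviation of the 50 members (rows, by role) from the mean of the 3 intact arrays on each of the 12 arrays (columns). Blue is lower and red is higher. The darkest column is day 1 replicate 2, where 30 of 32 constitutive subunits were below the mean of the other 2 arrays of that day, and Psme4 is red on all 3 day 3 arrays.

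The members varied together within groups. On deviations from the group means over the 12 arrays, the median correlation of a pair was 0.743 among the 10 induced pairs and 0.632 among the 496 constitutive pairs, which share the same arrays. Psmb9 was set against 4 genes of the interferon-gamma response over the 12 arrays, with permutation tests of 100000 resamples adjusted over the 4. With Psmb10 Pearson's r was 0.914 (permutation adjusted p = 0.00048) and Spearman's rho 0.860 (permutation adjusted p = 0.00116). With Psmb8 r was 0.845 (permutation adjusted p = 0.00356) and rho 0.888 (permutation adjusted p = 0.00104). With Tap1, its head-to-head neighbour, r was 0.730 (permutation adjusted p = 0.0124) and rho 0.629 (permutation adjusted p = 0.0315). With Irf1, a transcription factor of the interferon response, r was 0.600 (permutation adjusted p = 0.0336) and rho 0.699 (permutation adjusted p = 0.0197). Taken within groups, r was 0.934, 0.870, 0.877 and 0.628 for Psmb10, Psmb8, Tap1 and Irf1.

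These relations lean on the arrays of low separation to differing degrees. Without the 2 arrays farthest from the median of Psmb9, which were day 1 replicate 2 and day 7 replicate 2, r was 0.801, 0.818, 0.569 and 0.365 for Psmb10, Psmb8, Tap1 and Irf1. Over the 9 arrays without the weakly separating ones, r was 0.698, 0.774, 0.347 and 0.314. The relations with Tap1 and Irf1 thus rest in large part on those arrays. Constitutive genes showed the same kind of relation: the median r of Psmb9 with the 32 constitutive subunits was 0.693, from -0.08 for Psmc6 to 0.953 for Psmd3. Over the 9 arrays the median was 0.393, from -0.45 for Psme4 to 0.94 for Psmb4, the latter above the r with Psmb8 and Psmb10.

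No gene of the pathways around the proteasome passed the test over the 12 arrays. Of 13 measured genes of MHC class I presentation, 12 were lower at day 1, 12 at day 3 and 13 at day 7, with medians of -0.41, -0.28 and -0.34 and 0 called on each day. Of all probe sets, 8.94%, 4.46% and 5.7% had an unadjusted p under 0.05 in either direction, the background here and for the lists below. Of the 13, 4, 1 and 1 were lower at such a p and 0 higher. Leaving out the weakly separating arrays gave medians of -0.21, -0.16 and -0.25. The mean of these genes was 8.45 to 8.63 in intact mice. It was 7.52 to 8.37 at day 1, 8.01 to 8.35 at day 3 and 7.96 to 8.44 at day 7. No resected array thus reached the intact range, narrowly so at day 7. Of single probe sets, 16.4%, 13.9% and 14.3% did not overlap the intact arrays on those days, in either direction. Tap1 differed by -0.88 ± 0.28 at day 1 (limma adjusted p = 0.384) and H2-Q4, a non-classical class I gene, by -1.04 ± 0.34 (limma adjusted p = 0.406). Both were smaller without the weakly separating arrays, at -0.53 and -0.51. Tapbpl, a peptide editor, differed by -0.92 ± 0.27 at day 3 and -0.78 ± 0.27 at day 7 (limma adjusted p = 0.771 and 0.686).

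Of 13 genes of interferon-gamma signalling, 11, 7 and 10 were lower, with medians of -0.48, -0.11 and -0.25 and 0 called. Of the 13, 6, 2 and 1 were lower at an unadjusted p under 0.05 and 0 higher. Over the 9 other arrays the medians were -0.28, -0.20 and -0.23, and 1 gene was called at day 1, Ifngr1, a receptor chain for interferon-gamma, which was higher by 0.88 ± 0.16 (limma adjusted p = 0.0486). Socs1, a feedback inhibitor induced by interferon, differed by -0.53 ± 0.16, -0.43 ± 0.16 and -0.69 ± 0.16 at days 1, 3 and 7 (limma adjusted p = 0.375, 1 and 0.332). Stat2 differed by -1.35 ± 0.39 at day 1 (limma adjusted p = 0.338), or -0.90 without the weakly separating arrays, and Irf1 by -0.58 ± 0.23 at day 3 (limma adjusted p = 1).

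Of 20 partners and regulators of the proteasome, 17, 11 and 18 were lower, with medians of -0.18, -0.07 and -0.20 and 0 called. Of the 20, 2, 0 and 1 were lower at an unadjusted p under 0.05 and 0, 0 and 1 higher. Over the 9 other arrays the medians were 0.06, 0.00 and 0.00. Zfand2a, a stress-induced protein that binds the proteasome, differed by -0.61 ± 0.22 at day 1 (limma adjusted p = 0.444). Pomp, the maturation factor of the core, differed by -0.32 ± 0.20 at day 1 and -0.32 ± 0.20 at day 7 (limma adjusted p = 0.642 and 0.989), or by -0.20 and -0.11 without the weakly separating arrays. Ngly1, which processes the transcription factor of proteasome genes, differed by 0.54 ± 0.21 at day 7 (limma adjusted p = 0.765). Of 5 measured genes of ubiquitin and its activation, 4, 3 and 3 were lower, with medians of -0.54, -0.12 and -0.40, and 0 were called. Of the 5, 2, 1 and 0 were lower at an unadjusted p under 0.05 and 0 higher. The 9 other arrays gave medians of -0.42, -0.18 and -0.30. Uba7, the enzyme that activates Isg15, differed by -1.29 ± 0.31 at day 1 (limma adjusted p = 0.27). It was called without the weakly separating arrays, with a difference of -0.96 ± 0.18 (limma adjusted p = 0.0497).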

How the data were processed

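Per the submitters' processing notes, the authors made the values with RMA in the Transcriptome Analysis Console, with no version given. The deposited table holds log2 signals per probe set of 12 Clariom S arrays, a scale read from the values, and was used as deposited. Of 28846 probe sets, 6640 controls were left out and 22206 tested; 19572 had 1 gene symbol and 2634 none. Replicates are biological per the labels, and their number limits the precision. Promoter coordinates are RefSeq's on GRCm38.p6.

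The limma package (3.58.1, R 4.3.3) fitted a linear model to the 12 arrays with group as the only term, checked on simulated data first, two-sided, with Benjamini-Hochberg adjustment. Exact permutation tests and correlations used SciPy 1.17.1, figures matplotlib 3.10.9, under Python 3.11.15. Values in every array are given for the induced subunits, their counterparts, Psme3, Psme4 and the 3 members of smallest unadjusted p on each day against intact and in the F test; others were named after their values were seen. The comparison with Psmb5 was not run. Members and lists were chosen with earlier results of these data known. Alternatives covered moderation, normalization, dim probe sets, array weights, a replicate block and left-out arrays.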

Additional observations from a re-analysis of the deposited data

Results flagged for a closer look

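Labelling controls, bacterial RNAs added to follow the reaction and outside the comparisons above, stood far above the intact level on 3 arrays. The log2 signal of dap was 7.7742 on day 7 replicate 2, 6.4679 on day 7 replicate 3 and 6.8848 on day 3 replicate 1, against 2.13 to 2.40 in intact mice. That of phe was 5.4689, 3.7957 and 4.2238 on those arrays, against 2.11 to 2.42, and that of thr was 5.7263, 4.2238 and 3.6381, against 1.88 to 2.41. Of these arrays, day 7 replicate 2 and day 3 replicate 1 are also weakly separating, and day 7 replicate 3 has the next lowest separation. A further labelling control, lys, was at most 3.05 after resection, against 1.82 to 2.15 in intact mice. Another added control, bioB, was 10.29 on day 1 replicate 2, against 8.65 and 8.62 on replicates 1 and 3 of that day. The part of these controls in the values of the subunits was not tested.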

How the results depend on the processing

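Over 25 alternatives on each day, the number of members called stayed at 0. At an unadjusted p under 0.05 the counts ran from 0 to 8 at day 1, 0 to 6 at day 3 and 0 to 5 at day 7. Psme4 at day 3 kept its direction in the 24 fits that held it, from 0.36 to 0.84 (lowest limma adjusted p = 0.286). So did Psmd9 at day 7, from -0.54 to -0.31 (lowest limma adjusted p = 0.325). Both dropped out when dim probe sets were removed. Both were picked for their small p, and many of these fits could not move the difference. Those fits changed the moderation, the threshold or the groups fitted, or left out an array of another resected day. Others averaged a gene's probe sets, of which each member had a single one, or added a replicate block. The replicate numbers did not pair the samples: deviations of same-numbered arrays correlated between -0.24 and 0.26, and those of other arrays between -0.32 and 0.28. With a replicate block no call changed. Each group holds each replicate number once, so the block cannot move a difference, and Psme4 at day 3 was 0.66 by design.

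The direction of the induced subunits turned in several fits. Psmb9 at day 1 was 0.12 with array weights and 0.19 without the 3 weakly separating arrays, where Psme2 at day 1 was 0.0481. Without the 3 arrays that carry the labelling control, which leaves 1 array at day 7, the day 7 values were 0.12 for Psmb8, 0.0209 for Psmb10, 0.44 for Psmb9 and 0.19 for the constitutive median. With the control separation as a covariate, an alternative chosen after seeing the data, Psmb8, Psmb10 and Psmb9 were 0.11, 0.0783 and 0.39 at day 1, Psmb10, Psmb9 and Psme2 were 0.12, 0.29 and 0.20 at day 3, and Psmb8 and Psmb9 were 0.30 and 0.24 at day 7. In that fit the constitutive median was 0.27, 0.37 and 0.18 at days 1, 3 and 7. The induced median was 0.0783, 0.12 and 0.24, so its sign turned on each day. Leaving out 1 array at a time, Psmb9 at day 1 ran from -0.56 to 0.19 and Psme2 from -0.67 to 0.0481, both highest without day 1 replicate 2, and Psme2 at day 7 ran from -0.0903 to 0.11. In the same fits the constitutive median ran from -0.27 to 0.14 at day 1, -0.12 to 0.13 at day 3 and -0.27 to 0.02 at day 7, and the induced median from -0.67 to -0.11, -0.37 to -0.13 and -0.67 to -0.19. The cause was not tested. The planned Psmb8 minus Psmb5 comparison was not run, since Psmb5 had no named probe set.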
